A study of Mus musculus with 13 samples.

Results

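The comparison set 5 glomerular RNA libraries whose titles carry an early code, NS161202 or NS170411, against 8 whose titles carry a late code, NS171018 or NS180319. These are all 13 libraries of the series, and they were chosen by the code in the sample title alone. Glomeruli, the filtering tufts of the kidney, came from 6-month-old mice of mixed C57/BL6x129/SVxBALB/c background and were isolated on magnetic beads before their messenger RNA was sequenced. The early libraries were 2 of kFRA (LCDD), a genotype named after light chain deposition disease, 2 of DH-LMP2A, which the labels do not describe further, and 1 of wild type (WT). The late libraries were 2 of LCDD, 2 of DH-LMP2A and 4 of WT. Each library pooled 3 mice, except 3 WT libraries of code NS180319 that came from 1 mouse each. What the code stands for is not stated, and the labels give one protocol for all libraries. It reads like a date, and it is used below only as a title code.

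A glomerulus is made of podocytes, fenestrated endothelium and mesangial cells inside a capsule of parietal epithelium. It is joined to the proximal tubule, so a glomerular preparation can carry pieces of tubule. In bead purification the beads lodge in glomerular capillaries and a magnet pulls the glomeruli away from a digest of the kidney. Transcripts made almost only in tubule cells, such as those of solute transporters, therefore serve as a measure of tubule RNA in such a preparation. In these bulk libraries fewer cells of a type and less RNA of that type per cell cannot be told apart.

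Early libraries held more tubule RNA and more mitochondrially encoded RNA, and less podocyte RNA, than late ones. Of 18146 genes tested, 3447 were called at an adjusted p under 0.05 (19.0%) by the edgeR quasi-likelihood test with genotype as a covariate, 2187 higher early (12.1%) and 1260 lower early (6.94%). In 714 genes (3.93%) every early library lay above every late one, and in 253 genes (1.39%) every early library lay below. Log2 fold changes below are early minus late, with the standard error (SE) of the fit, and levels are CPM, counts scaled by the TMM-adjusted library total. The median log2 fold change of all genes tested was 0.03. The count of calls fell without the 3 libraries of code NS161202. That left 2 early libraries, 1 of LCDD and 1 of DH-LMP2A, against 8 late ones. With genotype in the fit, the 4 late WT libraries then had no early WT library to be compared with and added nothing to the estimated difference. In this smaller design 3 genes were called, namely Gm10075, Gm3851 and Mgat5b. Still, 3087 of 17749 genes had an unadjusted p under 0.05 and DESeq2 called 1141. Without code NS180319 877 genes were called. Libraries of 1 code share it, and with codes as the units 2 against 2 cannot give a two-sided exact permutation p under 0.333. With the code as a random block in limma 1911 genes were called (10.5%), and among LCDD and DH-LMP2A alone 2394 of 17083 genes (14.0%).

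**Figure D1:**
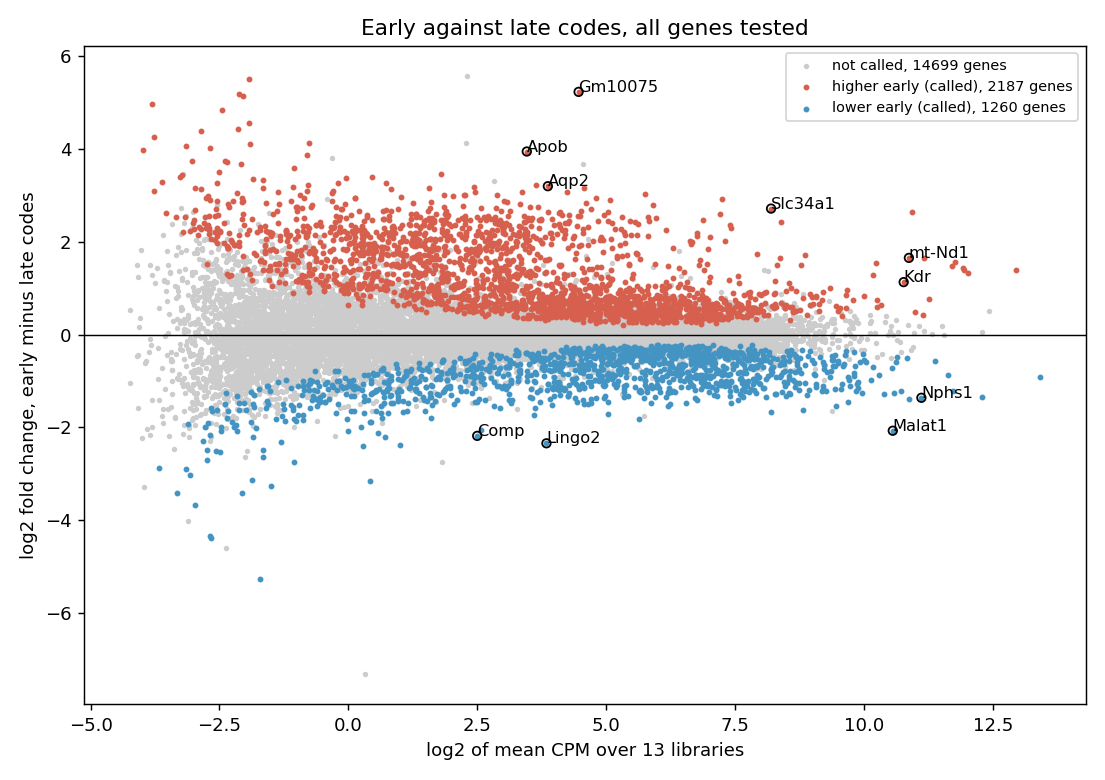
Each point is a gene, with the log2 of its mean CPM over the 13 libraries on the x axis and its log2 fold change, early minus late, on the y axis. Called genes are red where higher early (2187) and blue where lower early (1260), and Gm10075 lies apart at 5.23.

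All 38 proximal tubule genes of the list used were called higher early, with a median log2 fold change of 2.45, and in 32 of them every early library lay above every late one. Slc34a1, the sodium-phosphate cotransporter of the brush border, was at 343 and 386 CPM in early LCDD, 924 and 596 CPM in early DH-LMP2A and 812 CPM in early WT. In late libraries Slc34a1 was at 103 and 119 CPM in LCDD, 266 and 112 CPM in DH-LMP2A, and 41.7, 34.8, 11.5 and 75.7 CPM in WT, given here and below with the pool first and then mice 1 to 3. The groups of early and late libraries did not overlap, and the difference was 2.71 ± 0.46 (SE) on the log2 scale (edgeR adjusted p = 0.00207). Lrp2, the endocytic receptor megalin that takes up filtered protein, ran from 144 to 479 CPM early and from 11.0 to 106 CPM late. Slc5a2, the glucose transporter SGLT2 of the first tubule segment, ran from 64.4 to 187 CPM early and from 1.5 to 38.9 CPM late. Gpx3, a glutathione peroxidase that the proximal tubule secretes, was the most abundant of those named, at 2418 to 6414 CPM early and 191 to 1220 CPM late. Among the named genes of this list, the smallest rise with groups that did not overlap was that of Aqp1. This water channel, also made outside the tubule, was at 93.3 to 183 CPM early and 45.6 to 68.6 CPM late (1.34 ± 0.17). Without code NS161202 the list's median was 1.71, with 0 of 38 called by edgeR, 37 at an unadjusted p under 0.05 and 18 called by DESeq2, and Slc34a1 was at 1.71 (edgeR adjusted p = 0.150).

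The summed share of counts in the proximal tubule list was 0.586% to 1.39% in early libraries and 0.0960% to 0.389% in late ones. Its mean log2 CPM, used below as the tubule score, was 6.05 and 6.33 in early LCDD, 7.15 and 6.75 in early DH-LMP2A and 7.09 in early WT. In late libraries the score was 4.40 and 4.77 in LCDD, 5.48 and 4.44 in DH-LMP2A, and 3.30, 3.11, 2.06 and 4.42 in WT. The lowest early score, 6.05, lay above the highest late score, 5.48. The difference between the means was 1.60 in LCDD, 1.99 in DH-LMP2A and 3.87 in WT, where 1 early library stood against 4 late ones. These levels are a description of a list chosen with earlier results known, and were not tested.

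**Figure D2:**
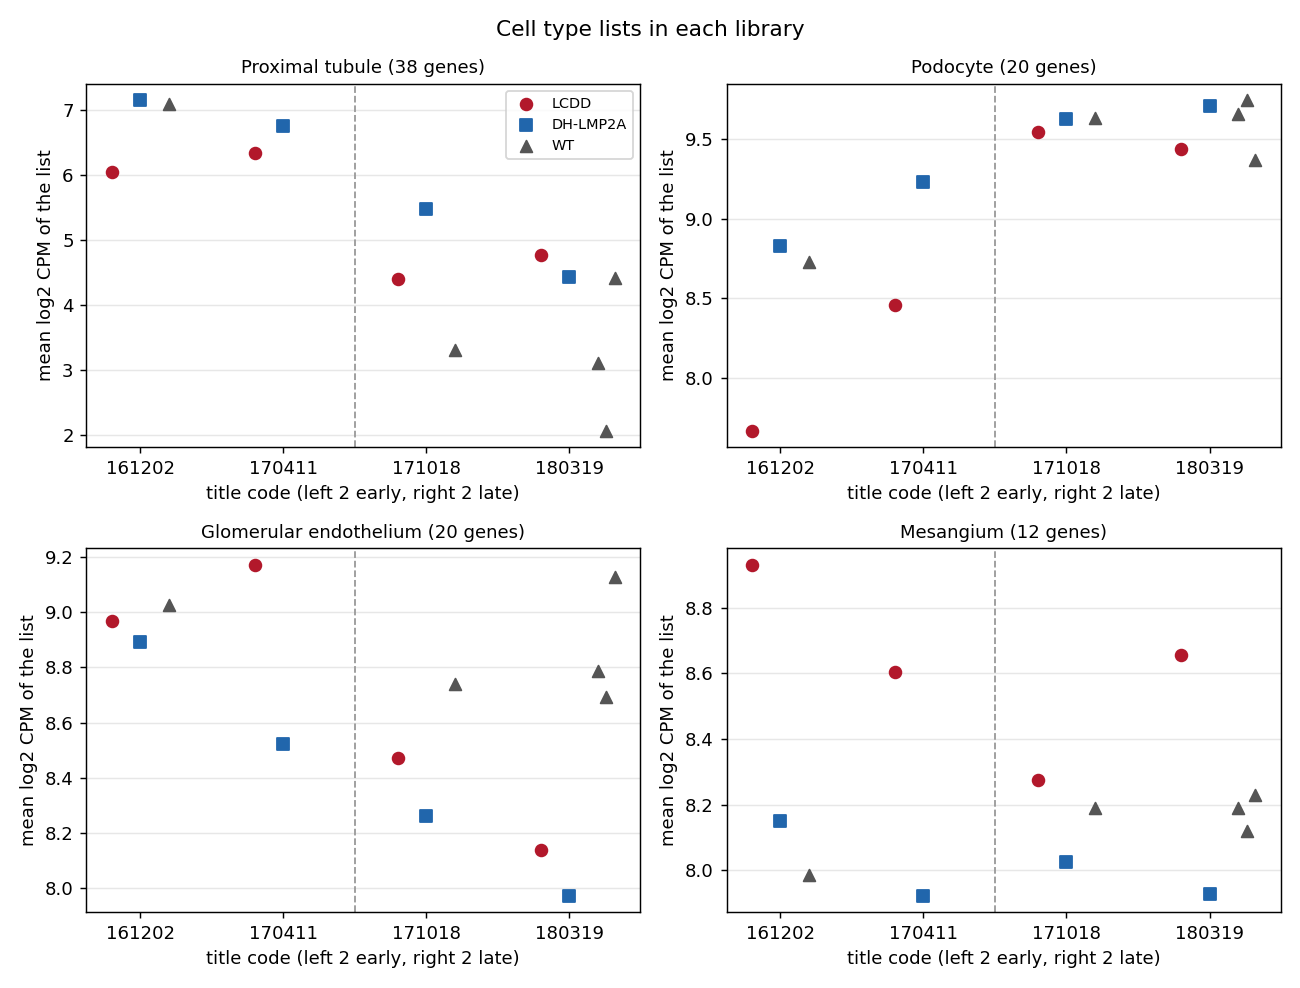
Mean log2 CPM (y axis) of 4 cell type lists in each library, by title code (x axis) and genotype (colour and shape), with early codes left of the dashed line. The proximal tubule list lies higher in all 5 early libraries (6.05 to 7.15) than in all 8 late ones (2.06 to 5.48), the podocyte list lies lower in them (7.67 to 9.23 against 9.37 to 9.75), and the endothelial and mesangial lists overlap.

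Among called genes averaging 5 CPM or more that moved one way in all genotypes, with predicted genes (symbols such as Gm10075, described below) left out, the 12 largest rises were all transcripts known from tubule or liver, and 3 of them, Spp2, Slc5a2 and Pck1, are on the proximal tubule list. Pck1, the rate-limiting enzyme of glucose synthesis from lactate and amino acids, was at 138 to 671 CPM early and 7.68 to 121 CPM late (2.91 ± 0.54). Nox4, an oxidase that makes hydrogen peroxide and is abundant in tubules, was at 35.6 to 112 CPM early and 1.35 to 15 CPM late (2.95 ± 0.49). Cyp24a1, which inactivates vitamin D, was at 9.78 to 37.4 CPM early and at 0 to 7.94 CPM late. Apob, apolipoprotein B, had the largest difference of the 12, and 1 library set its size. Apob was at 97.6 CPM in early WT and at 1.11 to 19.4 CPM in the other early libraries, against 0.132 to 3.55 CPM late (3.94 ± 0.72, edgeR adjusted p = 0.00291). The other rises named by the rule were Gc (3.22), Aqp2 (3.20), Ugt2b34 (3.17), Slc16a14 (3.07), Cyp2d26 (3.07) and Slc34a3 (3.00).

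HNF1 factors, transcription factors of the proximal tubule and liver, bind a site whose core is written GTTAAT, and this core was looked for because the proximal tubule genes moved together. Of the 31 proximal tubule genes with an entry in the RefSeq promoter table (GRCm38.p6, 250 bases before to 50 after the start of each gene), 10 held GTTAAT on either strand (32.3%), against 8.24% of all 27025 genes in that table, 2 of 7 thick ascending limb genes (28.6%), 2 of 13 podocyte genes and 1 of 12 glomerular endothelial genes. A match of letters is a description and not a site. The 4 stretches below, each on the plus strand, are shown because their genes are a regulator of the tubule and 3 of its metabolic and transport genes, with GTTAAT or its reverse complement in capitals.
Hnf4a, chr2:163547047-163547106: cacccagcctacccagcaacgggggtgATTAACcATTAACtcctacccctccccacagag
G6pc, chr11:101367468-101367527: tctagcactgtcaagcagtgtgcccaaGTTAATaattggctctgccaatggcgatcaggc
Miox, chr15:89334304-89334363: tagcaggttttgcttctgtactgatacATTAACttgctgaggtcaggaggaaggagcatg
Slc22a6, chr19:8617913-8617972: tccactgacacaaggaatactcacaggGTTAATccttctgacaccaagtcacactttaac
Hnf4a, a transcription factor of proximal tubule cells, was at 47.6 to 118 CPM early and 2.52 to 27.1 CPM late (2.52 ± 0.41 on the log2 scale, edgeR adjusted p = 0.00188). G6pc, the last enzyme of glucose synthesis, was higher by 2.41 ± 0.40, and Miox, which breaks down inositol, by 2.46 ± 0.45. Slc22a6, the organic anion transporter OAT1, was higher by 2.04 ± 0.44, with early and late libraries overlapping at 31.4 to 92.3 and 1.10 to 41.3 CPM. These 4 genes were chosen for the motif, after its matches were seen.

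Tubule segments beyond the proximal tubule were also higher early, less uniformly. All 10 thick ascending limb genes were called higher, with a median of 2.15. Umod, which encodes the urinary protein uromodulin, was at 546 and 867 CPM in early LCDD, 994 and 549 CPM in early DH-LMP2A and 1108 CPM in early WT. Umod was at 94.3 to 470 CPM in the 8 late libraries, so the groups did not overlap (1.71 ± 0.34, edgeR adjusted p = 0.00457). Of 10 distal convoluted tubule genes 4 were called higher and 0 lower (median 0.80). Slc12a3, the thiazide-sensitive cotransporter that defines this segment, was not called, at 62.4 to 173 CPM early and 29.7 to 194 CPM late. Of 9 collecting duct principal cell genes 4 were called higher (median 2.03). Aqp2, the water channel under vasopressin control, was at 74.4 CPM in DH-LMP2A and 32.1 CPM in LCDD under code NS161202 and at 10.6 to 22.5 CPM in the other early libraries, against 0.927 to 20.9 CPM late. Its highest late value, in 1 WT mouse of code NS180319, lay inside the early range. Of 10 intercalated cell genes 4 were called higher (median 1.60), and Slc4a1, the anion exchanger of acid-secreting cells, was at 1.46 ± 0.55 and not called. The summed shares of counts were 0.0857% to 0.191% early and 0.0140% to 0.0776% late for the thick ascending limb, and at most 0.0135% in any library for the collecting duct. Without code NS161202 the medians were 1.33, 0.62, 1.47 and 0.80 in the same order, with 0 genes called by edgeR, 7, 1, 2 and 0 at an unadjusted p under 0.05, and DESeq2 called 3 genes of the thick ascending limb and 0 of the others. Single libraries also moved these counts. Without early WT 6 thick ascending limb genes, 2 distal convoluted tubule genes, 2 principal cell genes and 0 intercalated cell genes were called. Without WT mouse 3 of code NS180319 9 of 9 principal cell genes (median 2.75) and all 10 intercalated cell genes (median 2.05) were called, and without early DH-LMP2A of code NS161202 2 and 0. With the code block 9, 2, 2 and 0 genes were called in the same order of segments. The intercalated cell count was 0 to 2 without any other single library, except 4 without early DH-LMP2A of code NS170411 or the late WT pool.

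All tested genes of tubule injury and of sex-biased tubule transport had positive differences, and fewer were called. Havcr1, the injury molecule KIM-1, was at 1.44 to 2.37 CPM in early libraries and 0 to 0.550 CPM in late ones, with 0 counts in 2 late libraries, and Spp1, osteopontin, rose by 2.13 ± 0.36. Of 7 tubular injury genes 2 were called. Of 10 male-biased proximal tubule genes 3 were called higher (median 1.36), among them Kap, an androgen-dependent kidney transcript, at 108 to 1243 CPM early and 8.35 to 467 CPM late. Of 5 female-biased kidney genes 4 were called higher (median 2.35). Leaving out 1 library gave 0 (without early WT or late LCDD of code NS171018) to 5 (without the late WT pool) male-biased calls and 1 (without early WT) to 4 female-biased calls, and the code block gave 1 of each. The labels give no sex. Xist, made from the inactive X, ran from 1026 to 19939 counts early and from 9 to 41308 counts late, and Ddx3y, a Y-linked gene, from 0 to 2296 counts early and 0 to 1861 late. Neither was called (edgeR), and with Xist as a covariate 3267 genes were called. In that covariate 1 library, late LCDD of code NS171018, lay far from the others, at 0.476 CPM against 38.9 to 1622 CPM. The fit therefore cannot show what the sex of the mice contributed.

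Podocyte transcripts were lower early: 18 of 20 were called lower and 0 higher, with a median of -1.05, and in 10 of them every early library lay below every late one. Wt1, a transcription factor that podocytes keep, was at 154 and 273 CPM in early LCDD, 406 and 485 CPM in early DH-LMP2A and 348 CPM in early WT. In late libraries Wt1 was at 771 and 633 CPM in LCDD, 777 and 809 CPM in DH-LMP2A, and 728, 725, 824 and 634 CPM in WT. Every early library lay below every late one, and the difference was -1.21 ± 0.18 (edgeR adjusted p = 0.00141). Nphs1, which encodes nephrin of the slit diaphragm, was at 436 to 2333 CPM early and 1983 to 3733 CPM late (-1.36 ± 0.26), with 1 early library, DH-LMP2A of code NS170411, inside the late range. Kirrel, a nephrin partner in the slit diaphragm, was at 136 to 358 CPM early and 368 to 501 CPM late (-1.04 ± 0.16). Cd2ap and Trpc6 were the members not called, at -0.75 and 0.17. By genotype the difference of Wt1 was -1.77 in LCDD, -0.84 in DH-LMP2A and -1.06 in WT, and that between LCDD and DH-LMP2A was not called.

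With the tubule score as a covariate the podocyte median was -0.995, and 0 podocyte genes were called for the slope on the score, as against 240 of all genes. In that fit no podocyte gene was called for early against late either, where 1 of all genes was. The SE of that difference was 1.95 times larger in the median gene, so the fit could hardly separate it from the score. The podocyte share of counts was 1.06% to 2.88% early and 3.19% to 4.25% late. The genes of the proximal tubule list alone held at most 1.39% of the counts in any library, and the share of all tubule RNA was not estimated. Without code NS161202 the podocyte median was -0.77, with 0 of 20 called by edgeR, 18 at an unadjusted p under 0.05 and 15 called by DESeq2. Wt1 was then at -1.05 (edgeR adjusted p = 0.0742) and Nphs1 at -0.99 (edgeR adjusted p = 0.116).

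Of 12 basement membrane genes 6 were called lower and 2 higher early, with a median of -0.04. The 6 lower were Col4a3 (-1.25), Col4a4 (-1.22) and Col4a5 (-1.26), the collagen IV chains of the mature glomerular membrane that podocytes make, and Agrn (-0.66), Lama5 (-0.56) and Lamb2 (-0.44), other components of that membrane. Col4a3 was at 339 to 1845 CPM early and 1464 to 2222 CPM late, with overlap of the early DH-LMP2A library of code NS170411. Lamc1 (0.51) and Nid2 (0.36) were the called rises, and Col4a1 (0.42) and Col4a2 (0.46), the chains that endothelium and mesangium make, were not called. The rises rested on few libraries: 0 were called without late LCDD of code NS180319 and 5 without early WT, and the code block gave 0 higher and 6 lower. Without code NS161202 0 genes of the list were called by edgeR.

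Endothelial transcripts went the other way: 14 of 20 were called higher early and 1 lower, with a median of 0.61. Kdr, the receptor VEGFR2 through which podocyte VEGF keeps the endothelium, was at 2221 and 2811 CPM in early LCDD, 2218 and 1257 CPM in early DH-LMP2A and 2691 CPM in early WT. In late libraries Kdr was at 1155 and 761 CPM in LCDD, 799 and 537 CPM in DH-LMP2A, and 1703, 2026, 1735 and 2830 CPM in WT. Within LCDD and within DH-LMP2A early lay above late, while the late WT libraries reached the early range (1.13 ± 0.24, edgeR adjusted p = 0.00646). Emcn, an endothelial surface mucin, was at 958 to 1948 CPM early and 683 to 1767 CPM late (0.63 ± 0.17). Gata5, a transcription factor of glomerular endothelium, was higher by 0.98 ± 0.20. The member called lower was Cldn5, a tight junction claudin that podocytes also make. Cldn5 was at 59.9 to 212 CPM early and 190 to 358 CPM late, a difference of -1.03 ± 0.21 (edgeR adjusted p = 0.00455). With the tubule score as a covariate the list's median was 0.56, and without code NS161202 it was 0.70, with 0 called by edgeR, 14 at an unadjusted p under 0.05 and 10 called by DESeq2. Kdr was then at 1.23 (edgeR adjusted p = 0.0943). The code block called 8 higher. Leaving out 1 library gave 6 (without late LCDD of code NS180319) to 16 (without early DH-LMP2A of code NS170411), with 7 or 8 also without early LCDD of code NS170411, early DH-LMP2A of code NS161202 or late DH-LMP2A of code NS180319.

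**Figure D3:**
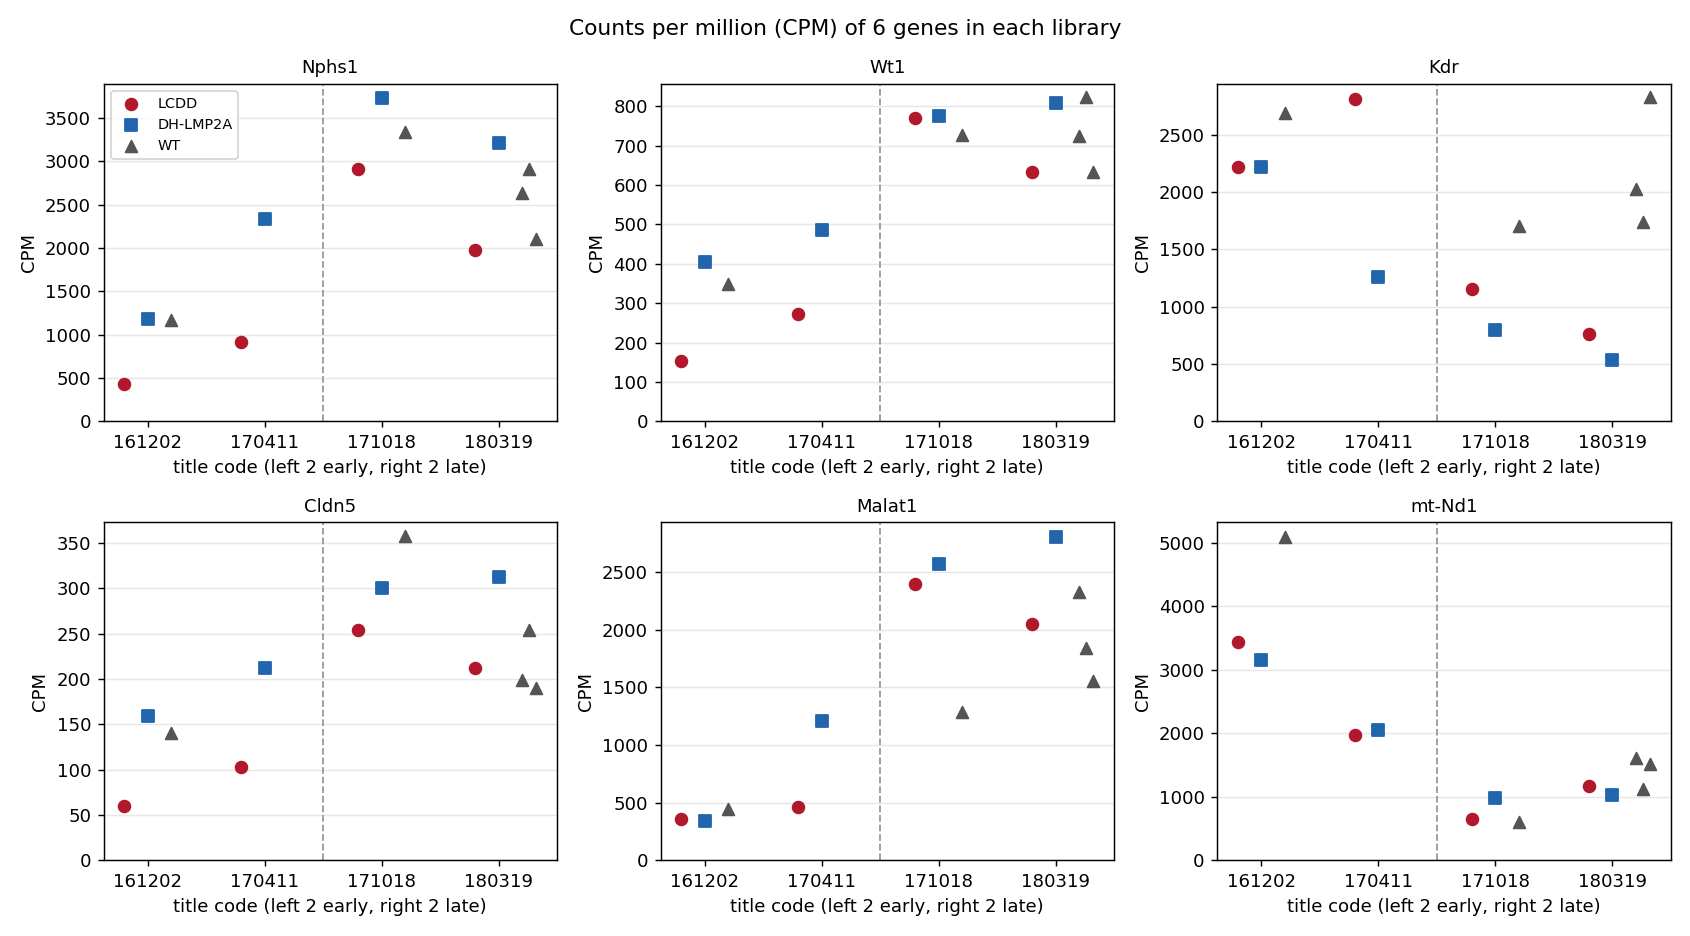
CPM (y axis, from 0) of 6 genes in each library, by title code (x axis) and genotype (colour and shape), with early codes left of the dashed line. Wt1 and Malat1 lie lower and mt-Nd1 higher in all early libraries, while Nphs1, Kdr and Cldn5 overlap.

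No mesangial gene was called: of 12, 0 passed by edgeR, at an unadjusted p under 0.05 or by DESeq2, with a median of 0.12. Pdgfrb, the receptor that marks mesangial cells and pericytes, was at 497 to 726 CPM early and 459 to 864 CPM late (-0.17 ± 0.16, edgeR adjusted p = 0.479), and Des, which encodes desmin, was at 0.26 ± 0.15. Of all genes 6059 had an unadjusted p under 0.05. Arterial smooth muscle and renin cell genes likewise gave 0 calls among 9 by all 3 criteria (median -0.26), and Ren1, which encodes renin, was at 92.0 to 500 CPM early and 27.3 to 431 CPM late. Parietal epithelium genes were split, with 4 of 9 called higher and 1 lower. The rises were Krt8 (2.02 ± 0.37), Krt18 (1.97 ± 0.47), Pax2 (1.62) and Cd9 (0.62), all of which tubule epithelium can also make. Scel, which encodes sciellin, was the fall, at 4.44 to 18.0 CPM early and 14.4 to 37.8 CPM late (-1.30 ± 0.26). With the code block 1 parietal gene was called higher and 1 lower.

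Of the blood and immune lists, edgeR made calls in that of macrophages and monocytes. Of 6 red blood cell genes 0 were called by edgeR, DESeq2 or at an unadjusted p under 0.05, with Hba-a1, a haemoglobin chain, at 134 to 666 CPM early and 56.8 to 590 CPM late. Of 14 macrophage and monocyte genes 4 were called higher and 0 lower (median 0.76), beside the 12.1% of all genes called higher, namely Ptprc (0.60), Lyz2 (1.03), Itgam (0.91) and Cx3cr1 (1.28). That count was 11 without the late WT pool of code NS171018, 4 without early LCDD of code NS161202, early DH-LMP2A of code NS170411 or WT mouse 1, and 1 to 3 without any other single library. It was 0 with the code block or without code NS161202. Of 11 lymphocyte genes and 10 immunoglobulin and plasma cell genes edgeR called 0, with 2 of each at an unadjusted p under 0.05 and 1 of each called by DESeq2. Of 20 interferon response genes edgeR called 0 and DESeq2 1, with 1 at an unadjusted p under 0.05 (median 0.10). Of 6 fibroblast genes Pi16 was higher (0.66 ± 0.20) and Col1a2 lower (-1.32 ± 0.35), and the median was 0.39. Of the 2 adipocyte genes tested, Pck1, which the proximal tubule also makes, was called and Cfd was not.

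Mitochondrially encoded transcripts were higher early, 12 of 13 called, with a median of 1.54. The encoded genes give subunits of the respiratory chain, which tubule cells hold in quantity. Transcript mt-Nd1, of complex I, was at 3440 and 1968 CPM in early LCDD, 3160 and 2046 CPM in early DH-LMP2A and 5095 CPM in early WT. In late libraries mt-Nd1 was at 654 and 1173 CPM in LCDD, 980 and 1033 CPM in DH-LMP2A, and 601, 1608, 1118 and 1521 CPM in WT. No early library overlapped a late one (1.65 ± 0.26, edgeR adjusted p = 0.00166). The share of all counts in mitochondrially encoded transcripts was 2.20% to 4.76% early and 0.620% to 1.65% late. In an exact permutation of early and late within genotype, two-sided, its adjusted p was 0.0111, from an unadjusted 0.00556, the smallest that 180 arrangements can give. That test moves libraries singly, though libraries of 1 code share it, and with codes as the units an exact permutation p cannot go under 0.333. Of the nuclear genes of the same complexes 19 of 89 were called higher and 0 lower, with a median of 0.17. That count was 6 (without early WT) to 27 (without early DH-LMP2A of code NS170411) when 1 library was left out, and 7 with the code block. It was 14 without early LCDD of code NS170411, 21 without the late WT pool and at most 11 without any other single library. Among them Atp5g3 was at 0.58 ± 0.09 and Cox5a at 0.60 ± 0.11. With the tubule score as a covariate the median of the mitochondrially encoded list was 1.17 and that of the nuclear list 0.08. Without code NS161202 the former was 0.83, with 0 of 13 called by edgeR, 8 at an unadjusted p under 0.05 and 5 called by DESeq2, and without early WT 7 were called.

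Few genes were called between codes of the same period, where fewer libraries stood on each side than in early against late. The median absolute log2 fold change was 0.235 for NS161202 against NS170411 and 0.243 for NS171018 against NS180319, beside 0.271 for early against late. Few calls therefore do not mean that the codes of a period were alike. Gm13340 (chromosome 2, 22588103 to 22589647), an annotated unprocessed pseudogene, was the only gene called between NS161202 and NS170411 (0.00551%), at 247 to 296 CPM under NS161202 and 103 and 110 CPM under NS170411 (1.30 ± 0.14, edgeR adjusted p = 0.0429). Between NS171018 and NS180319 3 genes were called (0.0165%). Gm13340 was at 42.2 to 52.3 CPM under NS171018 and 80.2 to 97.2 CPM under NS180319 (-0.95 ± 0.11), and mt-Co2, of complex IV, at 2.27 to 2.45 and 5.59 to 9.5 CPM (-1.46 ± 0.18). Gm26669, an annotated lincRNA, was at 1.25 to 3.56 CPM under NS171018 and 0.133 to 0.574 CPM under NS180319 (3.23 ± 0.36). Between NS161202 and NS170411 mt-Co2 had the next smallest p after Gm13340 and was not called (1.74 ± 0.21, edgeR adjusted p = 0.0638). Over all libraries mt-Co2 was at 2.27 to 22.6 CPM, beside 601 to 5095 CPM for mt-Nd1. The handling of reads with several matches is not given, so whether Gm13340 and mt-Co2 were counted apart from other genes cannot be told. The median of the mitochondrially encoded list was 0.85 for NS161202 minus NS170411, with 0 of 13 called, and -0.74 for NS171018 minus NS180319, with mt-Co2 called. Unadjusted p under 0.05 was reached by 1963 and 3269 genes in these comparisons, and DESeq2 called 260 and 763. Leaving out single libraries moved the calls to between 0 and 3 in both.

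**Figure D4:**
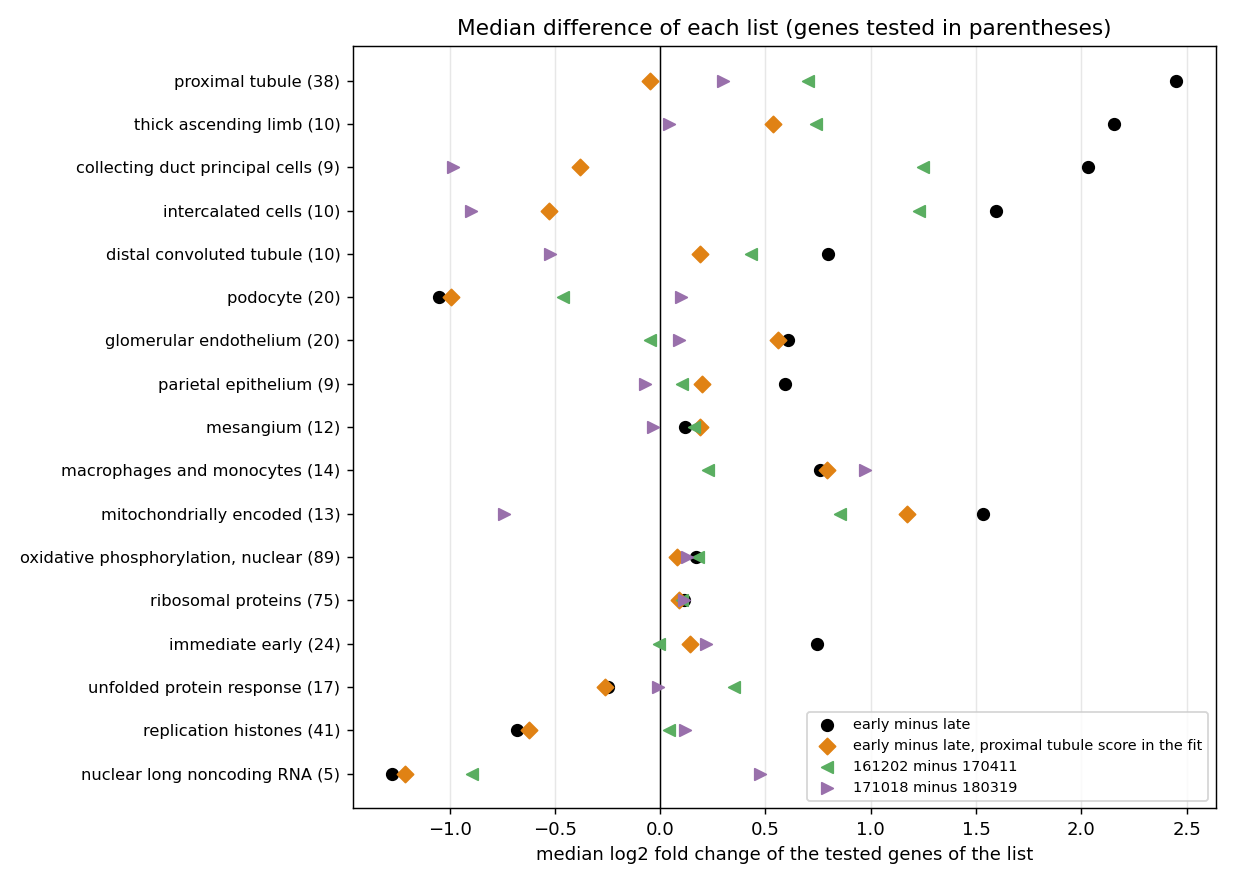
Median log2 fold change (x axis) of the tested genes of 17 lists (y axis), for early minus late codes, for the same with the tubule score in the fit, and for the codes within each period. With the score in the fit the proximal tubule median moves from 2.45 to -0.05, a move that is built in because the score is the mean of that same list. The podocyte median goes from -1.05 to -0.995 and the mitochondrially encoded one from 1.54 to 1.17.

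Nuclear long noncoding RNAs and replication histones were lower early. Malat1, retained in nuclear speckles, was at 361 and 458 CPM in early LCDD, 343 and 1211 CPM in early DH-LMP2A and 447 CPM in early WT. In the 8 late libraries Malat1 was at 1285 to 2806 CPM, so the groups did not overlap (-2.07 ± 0.29, edgeR adjusted p = 0.00121). Neat1, the scaffold of paraspeckles, was at 464 to 1521 CPM early and 916 to 2709 CPM late (-1.27 ± 0.31), and Kcnq1ot1, an imprinted antisense RNA, was also called lower (-1.38). Snhg11, the other called member, was higher early (2.48 ± 0.58), and Meg3 was not called. The list of 5 had a median of -1.27, of -1.21 with the tubule score and of -0.86 without code NS161202, where Malat1 was at -1.70 (edgeR adjusted p = 0.0819). Of 41 replication histone genes tested, whose messages mostly end in a stem loop in place of a poly(A) tail, 12 were called lower and 0 higher, with a median of -0.68. Hist1h1e, a linker histone, was at 1.02 to 1.61 CPM early and 2.39 to 5.10 CPM late (-1.40 ± 0.23). Their median was -0.63 with the tubule score and -0.73 without code NS161202, and the code block called 6.

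By the same rule, which leaves out predicted genes, the largest falls beside Malat1 were of genes of varied role. Lingo2, a leucine-rich repeat membrane protein, was at 1.09 to 7.69 CPM early and 10.8 to 32.0 CPM late (-2.34 ± 0.34). Comp, cartilage oligomeric matrix protein, was at 0.640 to 3.22 CPM early and 4.54 to 12.2 CPM late (-2.18 ± 0.39). Mgat5b, a glycosyltransferase, was at 2.41 to 21.6 CPM early and 24.0 to 59.6 CPM late (-1.72 ± 0.27), and it was 1 of the 3 genes called without code NS161202 (-1.81). In all 3 genes early lay below late without overlap. The others were Dusp15 (-1.81), Tdrd5 (-1.67), Adcy1 (-1.64), Opcml (-1.59), Rhpn1 (-1.54), Fgfbp1 (-1.53), Sgip1 (-1.49) and Sec16b (-1.49).

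Genes of stress, handling and metabolism moved in part, beside 12.1% of all genes called higher and 6.94% called lower. Of 24 immediate early genes, which respond within minutes to stimulation or tissue handling, 6 were called higher and 0 lower, with a median of 0.75. Fos was at 76.6 and 328 CPM in early LCDD, 124 and 68.1 CPM in early DH-LMP2A and 375 CPM in early WT, against 15.7 to 105 CPM late (1.61 ± 0.52, edgeR adjusted p = 0.0473). The other 5 were Jun (1.16), Ier2 (1.12), Klf4 (0.80), Zfp36 (0.79) and Klf2 (0.70), while Egr1 was at 1.25 ± 0.43 and not called. The count was 1 without early WT, 11 without early DH-LMP2A of code NS170411, 10 without the late WT pool and 2 with the code block. Of 13 heat shock genes Hspd1 was called higher (0.43) and Cryab, a small chaperone, lower (-0.81), a smaller share than the 19.0% of all genes. Hspa1a, the inducible HSP70, was at 99.99 to 827 CPM early and 14.7 to 431 CPM late and was not called. Of 17 genes of the unfolded protein response, which raises folding capacity in the endoplasmic reticulum, 5 were called lower and 1 higher (median -0.25). Hyou1, a chaperone of that compartment, was at 167 to 214 CPM early and 262 to 342 CPM late without overlap (-0.69 ± 0.08, edgeR adjusted p = 0.00118), and Pdia4 (-0.60), Hspa5 (-0.55), Sdf2l1 (-0.64) and Creld2 (-0.39) were the other falls. Herpud1, which acts in degradation from that compartment, was the rise (0.44). The falls numbered 3 with the code block and 3 to 6 when 1 library was left out.

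Of 16 hypoxia and glycolysis genes 7 were called higher and 0 lower (median 0.37), 3 without early WT and 4 with the code block. Pdk1, which holds back pyruvate from mitochondria, was at 19.6 to 24.0 CPM early and 11.97 to 17.0 CPM late (0.66 ± 0.10), and Ndrg1 was at 1.11 ± 0.17. Of 12 sterol synthesis genes 4 were called higher and 2 lower (median 0.22). Hmgcs1, which supplies the pathway's precursor, was at 81.3 to 90.0 CPM early and 37.5 to 61.7 CPM late (0.62 ± 0.11), and Dhcr7, of its last step, was lower (-0.46). Of 10 fasting and PPAR target genes 3 were called higher (median 0.40), and of 8 glucocorticoid response genes 2 were called higher and 1 lower (median 0.43). Errfi1, a feedback inhibitor of the EGF receptor, was at 82.0 to 162 CPM early and 33.5 to 76.0 CPM late (1.21 ± 0.21). Of 17 clock genes Per1 alone was called (-0.80), of 16 cell cycle genes Mcm2 alone (0.54), and of 75 ribosomal protein genes 0 by edgeR or DESeq2, with 2 at an unadjusted p under 0.05 (median 0.11). Each of these lists held a smaller share of edgeR calls than all genes did (19.0%). Hspd1, Per1 and Mcm2 were not called without late LCDD of code NS171018 or with the code block. Hspd1 was also lost without any 1 library of code NS161202, late DH-LMP2A of code NS171018 or any single WT mouse. Per1 was also lost without any 1 of the other LCDD libraries, either late DH-LMP2A library or early WT. Mcm2 was also lost without late LCDD of code NS180319 or early DH-LMP2A of code NS161202. Clock genes Dbp and Arntl ranged widely within both periods, Dbp from 79.8 to 328 CPM early and from 11.2 to 498 CPM late.

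With the tubule score as a covariate 1 gene was called for early against late (0.00551%), and 1337 genes had an unadjusted p under 0.05. The slope on the score was called in 240 genes (1.32%), 239 of them positive. Genotype and score together held 75.0% of the variance of the early-late label, and the SE of the early-late difference was 1.95 times that without the score in the median gene. The fit therefore had little room to separate the early-late difference from the tubule score. Slc34a1, which is part of the score, went from 2.71 to -0.20. Podocyte, endothelial, mitochondrially encoded, nuclear noncoding and histone lists kept the sign of their medians, as given above. Whether tubule RNA sets the other differences was not tested beyond this fit.

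The gene still called with the tubule score was Gm10075, and it was named after its values were seen. Gm10075 (GRCm38 chromosome 1, 19153422 to 19153966, minus strand) is a processed pseudogene, an intronless copy of Hmgb1, a chromatin protein, and lies within the span of Tfap2d on the opposite strand. It was at 59.2 and 65.7 CPM in early LCDD, 52.6 and 49.8 CPM in early DH-LMP2A and 48.6 CPM in early WT. In late libraries Gm10075 was at 0.793 and 1.79 CPM in LCDD, 0.907 and 1.82 CPM in DH-LMP2A, and 1.53, 1.34, 1.77 and 1.83 CPM in WT. Every early library lay above every late one in all 3 genotypes, by 5.23 ± 0.20 on the log2 scale (edgeR adjusted p = 1.87e-08). Without code NS161202 the difference was 5.37 ± 0.31 (adjusted p = 0.000172). Hmgb1 itself was at 148 to 227 CPM early and 172 to 250 CPM late and was not called (-0.12 ± 0.10).

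The copy is close to its parent, which is why the pair is shown. Over 526 aligned bases of the GENCODE M21 transcripts, 99.6% were identical, with 2 substitutions and 5 bases in gaps, and 300 of the 471 stretches of 75 bases in the pseudogene, the length of 1 read, also occur in Hmgb1. The stretch below holds the substitution G300C, written as the Hmgb1 base, its position from the first base of the Hmgb1 coding sequence, and the Gm10075 base, with that base in capitals. It spans coding bases 263 to 337 of Hmgb1 (chromosome 5) and chr1:19153625-19153699 on the minus strand for Gm10075.
Hmgb1: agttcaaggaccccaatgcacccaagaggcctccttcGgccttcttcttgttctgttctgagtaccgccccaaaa
Gm10075: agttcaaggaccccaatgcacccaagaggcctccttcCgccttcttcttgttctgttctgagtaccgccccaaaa
Of the counts of the pair, Gm10075 held 20.7% to 25.1% in early libraries and 0.439% to 0.901% in late ones. How reads that match both places were counted is not given in the sources used here, so counts from the shared stretches cannot be assigned to one gene of the pair.

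Other pseudogenes also differed by code in every library, and these too were picked after their values were seen. Gm4202 (chromosome 3, 92689426 to 92690158), a processed copy of Ywhaz, was at 51.3 to 64.6 CPM early and 26.6 to 35.8 CPM late (0.96 ± 0.08, edgeR adjusted p = 0.000149). Over 732 aligned bases it had 0 substitutions and 1 gap base, and 589 of its 659 stretches of 75 bases occur in Ywhaz. Ywhaz, an abundant 14-3-3 adaptor protein gene on chromosome 15, was at 286 to 384 CPM early and 261 to 334 CPM late and was not called (0.12 ± 0.10). Gm2274 (chromosome 14, 26156036 to 26163648), an unprocessed copy of Anxa11, went the other way, at 4.13 to 7.29 CPM early and 13.8 to 20.7 CPM late (-1.73 ± 0.16, edgeR adjusted p = 0.000464). Of its 535 stretches of 75 bases 528 occur in Anxa11, a membrane-binding annexin gene on the same chromosome, which was not called (0.30 ± 0.13). Gm3851 (chromosome 1, 119787769 to 119788086) is another processed pseudogene and was not aligned to a parent gene. It was at 28 counts over the 5 early libraries and 364 over the 8 late ones, a ratio per total count of 0.0985 (95% exact interval 0.0646 to 0.145, for counting error only). It was called without code NS161202 as well (-4.83). Without code NS161202 Gm4202 was at 0.93 and Gm2274 at -1.59, neither called (edgeR adjusted p = 0.0628 for each).

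**Figure D5:**
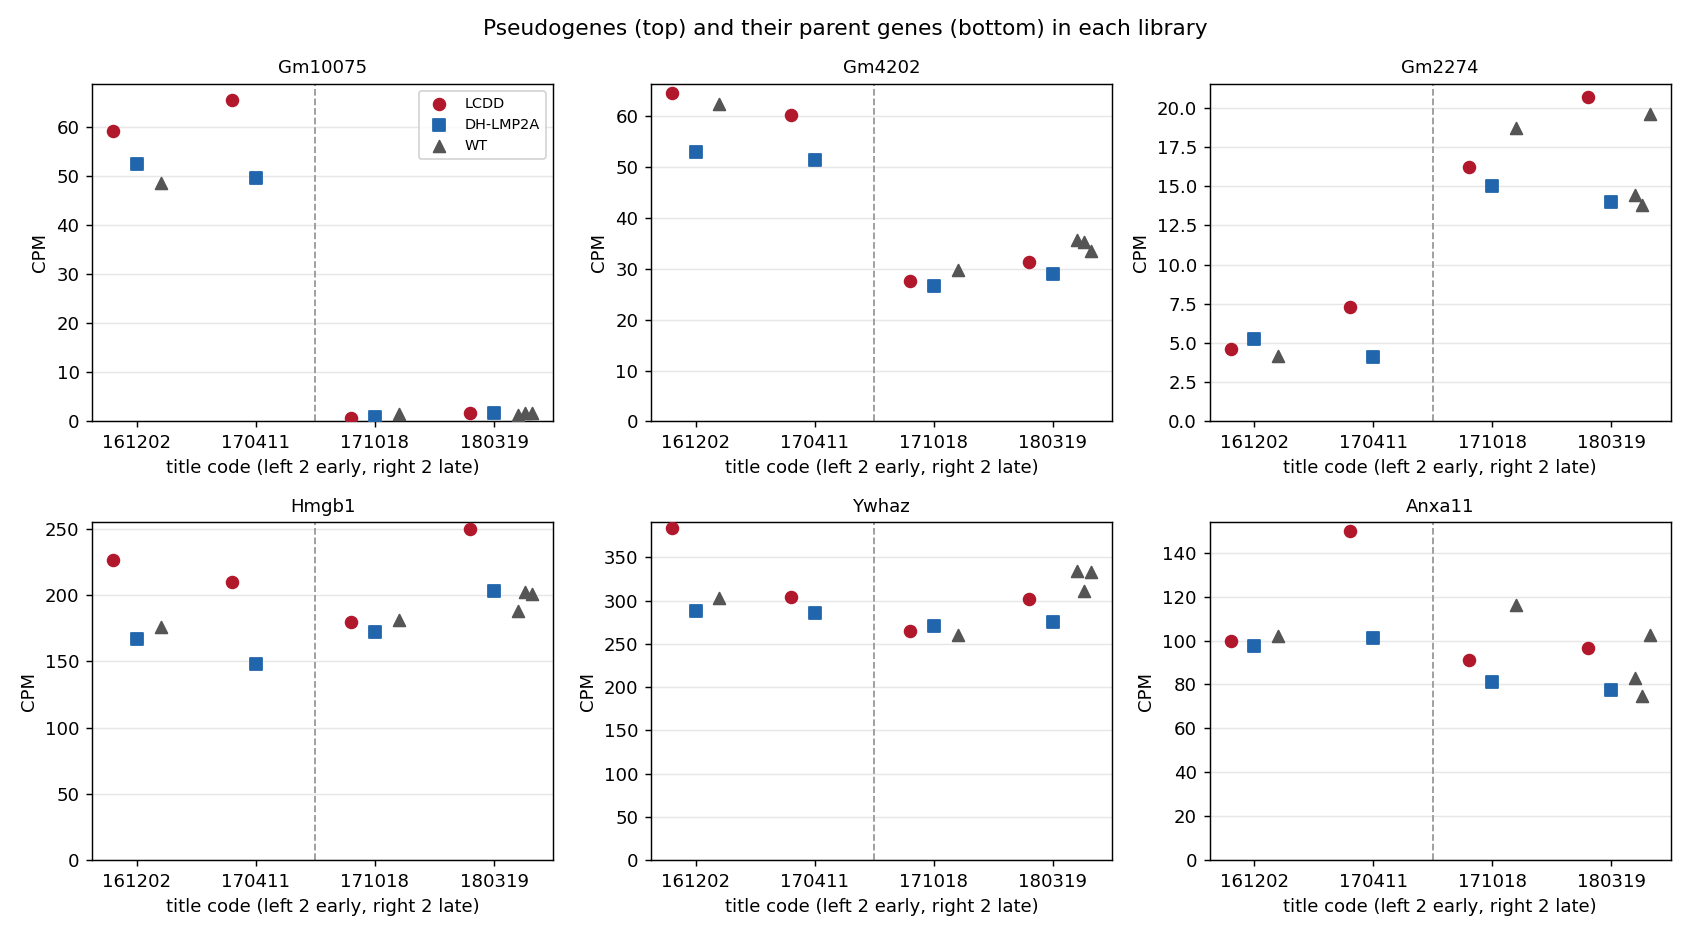
CPM (y axis, from 0) of 3 pseudogenes (top) and their parent genes (bottom) in each library, by title code (x axis) and genotype (colour and shape), with early codes left of the dashed line. Gm10075 and Gm4202 lie higher and Gm2274 lower in all 5 early libraries, while the parents Hmgb1, Ywhaz and Anxa11 overlap.

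Processed pseudogenes were called in both directions, with falls outnumbering rises, while among protein-coding genes rises outnumbered falls. Of 1020 processed pseudogenes tested 40 were called higher and 65 lower (10.3% called, 6.37% lower). Of 14303 protein-coding genes 2939 were called (20.5%), 1973 higher and 966 lower (6.75% lower). Biotypes were taken by symbol from GENCODE M21, which matched 17398 of the genes tested. Of 400 lincRNA genes 58 were called, 33 of them lower. Genes were also split into 10 classes by summed exon length. The class of shortest genes, up to 884 bases, had a median log2 fold change of -0.06, and the class of longest genes, from 8373 bases, one of -0.08. The other classes lay between -0.03 and 0.11. The highest median, 0.11, was that of genes of 1551 to 2153 bases. From there the medians fell in most steps to the longest class. In the class of 1551 to 2153 bases 15.04% of genes were called higher and 4.52% lower, against 9.32% and 10.87% in the longest class. In the shortest class 6.39% were called higher and 6.89% lower. The cause of these differences by length was not tested.

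LCDD and DH-LMP2A, with 2 early and 2 late libraries each, were compared for the size of the early-late difference. A single gene was called for the interaction (0.00551%), and 397 genes had an unadjusted p under 0.05. Htatip2 (chromosome 7, 49759106 to 49773999), which encodes a regulator of nuclear import and apoptosis, had 149 and 148 counts in early LCDD and 1 count in each of the late LCDD libraries. In DH-LMP2A it was at 14.8 and 11.2 CPM early and 12.4 and 10.6 CPM late, and in WT at 12.02 to 18.9 CPM in all 5 libraries. The early-to-late ratio in LCDD was 123 per total count (95% exact interval 33.7 to 1020, for counting error only), and the interaction had an edgeR adjusted p of 0.00127. The 2 late LCDD libraries therefore stood apart from the other 11 in this gene. Early LCDD, at 5.80 and 5.68 CPM, also lay below every DH-LMP2A and WT library, at 10.6 to 18.9 CPM. Without the late LCDD library of code NS180319 0 genes were called, and DESeq2 called 2.

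Libraries also differed in depth and in the number of genes detected. Total counts were 25797554 to 30587890 early and 16687509 to 26000417 late (exact permutation within genotype, two-sided, adjusted p = 0.0148). Genes with at least 10 counts numbered 16067 to 16614 early and 15053 to 16018 late (adjusted p = 0.0111 by the same exact test). The 100 most abundant genes held 18.1% to 21.4% of counts early and 18.0% to 19.2% late (adjusted p = 0.0222 by the same exact test). These exact tests move libraries singly, though libraries of 1 code share it, so they do not measure the spread between codes. Libraries of the same code deviated together from their genotype means with a mean correlation across genes of 0.28 over 14 pairs (-0.14 to 0.56). For the other code of the same period the mean was 0.21 over 14 pairs (-0.17 to 0.49). For different periods it was -0.24 over 28 pairs (-0.57 to 0.17). Deviations from a genotype mean cancel within that genotype, so a negative mean between periods is built in once the mean within periods is positive. The spread within a genotype is that between libraries, and late WT mixed 1 pool with 3 single mice. Without the single mice 2715 genes were called.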

How the data were processed

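RNA of bead-purified glomeruli was measured in 13 libraries, read as pairs of 75 bases from stranded poly(A)-selected libraries, per the labels' protocols. The authors deposited 1 table of raw counts per gene, made with featureCounts per the file headers. The submitters' processing notes name STAR 2.4.0a, featureCounts, Subread 1.5.0-p3, DESeq2 and the build mm10 (GRCm38). The strand setting, the handling of reads with several matches and the annotation are not given in the sources used here. Of the gene spans matched to GENCODE M21 by symbol, 99.96% overlapped it.

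From the counts, edgeR 4.0.16 in R 4.3.3 kept 18146 of 46958 genes (filterByExpr by genotype and period, minimum count 10), which held 99.96% or more of every library. TMM scaling and glmQLFTest with genotype and period as terms followed, with Benjamini-Hochberg adjustment and a threshold of 0.05. A fit with 1 coefficient per genotype and period gave the interaction, and one per code the comparisons within a period. SE is the log2 fold change over the square root of F. Log2 CPM used a prior count of 2. Total counts ran from 16687509 to 30587890. The chi-square per degree of freedom between libraries of a genotype showed no library deposited again. The fits were tested on simulated data. Transcripts were aligned with Biopython 1.88.

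The libraries, gene lists and rules were chosen with earlier results of these data known. The genes named were the 12 largest rises and falls among genes past the threshold that averaged 5 CPM or more and moved one way in all genotypes, without predicted genes, the 3 members of each list with the smallest p, the called genes of the other comparisons and 20 further genes. Members of a list outside this rule, and pseudogenes, were named after their values were seen. A gene that the rule names is not reported here. Alternatives were DESeq2 1.42.0, RLE factors, other filters, covariates, call rules and subsets of libraries, and limma 3.58.1 with the code as a block. Codes pair libraries across genotypes in that block, on the evidence of the shared title code. 27 symbols read as dates and were left as found.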

Additional observations from a re-analysis of the deposited data

Results flagged for a closer look

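In sets of 4 to 10 libraries the gap of the highest or lowest value was set against the range (Dixon's 95% limits). Of 272 sets looked at 20 passed, where chance alone gives about 1 in 20.

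The late WT pool of code NS171018 stood apart from the 3 single WT mice in several gene groups. Its mean log2 CPM of interferon response genes was 6.40, against 4.18 to 4.49 in the mice, and it was also the highest of all 8 late libraries in that list. Its heat shock list was at 7.10, against 6.17 to 6.32, and Ighm, the immunoglobulin mu chain, at 4.92, against 2.29 to 2.70. Klf2 was at 8.07 and Errfi1 at 6.09 log2 CPM, against at most 7.22 and 5.16. Its Y-linked and Xist list was at 3.88, with Kdm5d at 2.59, Uty at 1.48 and Ddx3y at 3.60 log2 CPM, transcripts near 0 in the mice. Among all late libraries it was also highest in macrophage and monocyte genes (4.60, against at most 2.74), hypoxia and glycolysis genes (4.90) and ribosomal protein genes (7.82).

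Other values that stood apart were spread over libraries. In WT mouse 1 the top 100 genes held 19.2% of counts, against at most 18.6% in the other late WT libraries, and WT mouse 3 was lowest in Tsc22d3 (7.65) and highest of the late libraries in distal convoluted tubule genes (5.04). Among early libraries, WT had the highest total count (30587890) and the highest adipocyte list (4.30), and DH-LMP2A of code NS170411 the lowest macrophage list (1.94, against 3.03 to 3.45). LCDD of code NS180319 was lowest among late libraries in glucocorticoid response genes (5.24).

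The early-late difference of Htatip2 differed between LCDD and DH-LMP2A in the test of the interaction, by 6.67 ± 0.53 (SE) on the log2 scale, a size that depends on the treatment of the 1 count in each late LCDD library.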

How the results depend on the processing

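Depth sets a limit for the low genes: 3 counts were 0.0981 to 0.180 CPM. The early-late count of 3447 genes stayed within 1.5 times under DESeq2, RLE factors, both filters, the Xist covariate, 1 coefficient per code, LCDD and DH-LMP2A alone, and without the single WT mice, code NS170411 or code NS171018. It was 1911 with the title code as a replicate block in limma, 1584 with an absolute log2 fold change of at least 1, 877 without code NS180319, 3 without code NS161202 (1141 there with DESeq2, a setting chosen after seeing the data) and 1 with the tubule score; the cause was not tested, beyond the smaller early group without NS161202 and the 1.95 times larger SE with the score. Leaving out each library in turn gave 2308 (without early WT) to 4415 (without the late WT pool). The interaction count was 2 with DESeq2 and 0 to 2 without each library. For NS161202 against NS170411 the count was 260 with DESeq2, 6 with no filter, 2 with the tubule score, 0 in LCDD and DH-LMP2A alone and 0 to 3 without each library. For NS171018 against NS180319 it was 763 with DESeq2, 0 with the 5 CPM filter, in LCDD and DH-LMP2A alone or with Xist as a covariate, and 0 to 3 without each library. In LCDD and DH-LMP2A alone the library measures kept their direction, at 5442750 total counts, 1.53 percentage points of mitochondrial share, 0.903 points of the top 100 share and 430 (429.75) genes, and their adjusted exact permutation p of 0.0741 to 0.222 comes from 36 arrangements that cannot go below 0.0556. The tubule score difference of 2.39 was 2.05 with all tubule segments and 2.37 with RLE factors. With the tubule score in the fit the log2 fold change changed sign for Apob (-0.0486), Gc (-0.13), Ugt2b34 (-0.16), Slc16a14 (-0.59), Cyp24a1 (-0.75), Slc5a2 (-0.0616), Pck1 (-0.16), Atp6v1b1 (-0.50), Atp6v0d2 (-0.56), Cyp4a12a (-0.0244), Slc22a29 (-0.23), Tsc22d3 (0.17), Snhg11 (-1.05), Slc34a1 (-0.20), Lrp2 (-0.10) and Fos (-0.38) (adjusted p 0.696 to 0.995). Without code NS171018 Gm26669 was at 1.71 in place of -0.28. Of 4129 values of 154 named genes under alternatives, 3512 kept direction and call.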
